A study of Mus musculus with 12 samples.

Results

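Genes that bring fatty acids into a cell, carry them and make them ready for use were followed in mouse oocytes, in pools from a high-fat diet (HFD) cohort and a control diet (CD) cohort. They were taken by name, Cd36, Fabp3, Fabp4, Fabp5, Slc27a1, Slc27a4, Acsl1, Acsl3, Acsl4 and Acot13, and all 10 were among the 24062 genes counted. Of these, 6 passed the filter on low counts and were among the 9935 genes tested for diet, while Fabp3, Fabp4, Slc27a1 and Slc27a4 did not.

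Each diet had 6 libraries, each made from 4 pooled oocytes. The HFD females ate a modified high-fat, high-calorie feed for 9 weeks, and the CD females ate the feed that the labels call the control. Both feeds carry the same product code in the labels, which leaves the make-up of the control feed unclear. All females ate CD during mating, the males were vasectomized, and oocytes were isolated at 0.5 days post coitum. The sources used here do not give the strain and age of the mice, nor which female gave which pool, so p-values measure the spread between pools, part of which may be technical.

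Fatty acids cross the plasma membrane with help from CD36 and from transport proteins of the SLC27 family. Inside the cell, fatty-acid binding proteins (FABPs) keep them in solution, and long-chain acyl-CoA synthetases (ACSLs) join them to coenzyme A, which holds them in the cell and opens the way to oxidation, storage or membrane lipids. Thioesterases such as ACOT13 undo that step. Oocytes hold lipid droplets and burn fatty acids in their mitochondria during maturation.

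Gene counts summed to between 8409491 and 13793598 in HFD libraries and between 8556396 and 10477316 in CD libraries. Every count was even in 4 libraries (HFD replicates 1, 2, 4 and 6), whereas 50.8% to 52.1% of the counts above 0 were odd in the other 8. HFD replicate 3 stood apart with 14755 genes detected, against 12229 to 12772 in the other HFD libraries and 12344 to 13052 in CD libraries. The 14 oocyte markers had a high summed level in every library, 34.7% of it from H1foo. The sum was 14778 to 55651 CPM (counts scaled to a common library total) in HFD and 12471 to 37483 CPM in CD. Single markers differed widely, with Zp3 averaging 751 CPM in HFD and 59.9 CPM in CD, and Figla 9.39 and 0.303 CPM. Zp1, Zp2, Zp3, Ooep, Npm2 and Figla were highest in HFD replicate 3, and the other markers of the list in other libraries. Levels below are CPM scaled with TMM factors. Fold changes are log2 values, HFD minus CD, from edgeR's quasi-likelihood test, with p-values adjusted over all genes tested by the Benjamini-Hochberg method and a threshold of 0.05.

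Fabp5 was the FABP member with counts above the filter, and the coding sequences show how far its reads can be told from those of Fabp4 and Fabp3. The first 120 coding bases of Fabp5 (chromosome 3, plus strand) are given with the aligned start of Fabp4 (chromosome 3, minus strand) and Fabp3 (chromosome 4, plus strand), from GENCODE M21 on build mm10, 5′ to 3′. Capitals mark bases of Fabp4 and Fabp3 that match Fabp5 in the alignment.
Fabp5: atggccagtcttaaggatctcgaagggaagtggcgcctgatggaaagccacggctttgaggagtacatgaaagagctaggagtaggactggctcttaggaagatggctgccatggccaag
Fabp4: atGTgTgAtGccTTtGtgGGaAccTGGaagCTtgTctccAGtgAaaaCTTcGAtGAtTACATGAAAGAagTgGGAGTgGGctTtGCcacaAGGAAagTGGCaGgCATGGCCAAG
Fabp3: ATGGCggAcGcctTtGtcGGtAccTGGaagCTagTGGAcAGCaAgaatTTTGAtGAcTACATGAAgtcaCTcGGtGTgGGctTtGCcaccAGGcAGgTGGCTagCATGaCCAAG
In this stretch 69 of the 114 Fabp4 bases and 70 of the 114 Fabp3 bases match. Over the whole coding sequence Fabp5 was 61.7% identical to Fabp4 and 58.2% to Fabp3, and the longest run that Fabp5 shares with them was 12 and 10 bases. Processed pseudogenes come much closer. Fabp5 has 5 in the annotation with 93.6% to 98.3% identity and shared runs of 59 to 179 bases. Fabp3 has Fabp3-ps1, which matches it at 99.3% of 402 bases with a shared run of 256. The sources used here give no read length, and reads placed in more than 1 position were tallied apart from the genes, so the levels of Fabp5 and, more so, Fabp3 are uncertain and may be too low. Their share of all tallied reads was 26.8% to 35.7% in HFD libraries and 18.6% to 26.5% in CD libraries, and their part in the results of these genes was not tested.

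The 4 genes that did not pass the filter held 25 counts in all 6 HFD libraries together and 1 count in all 6 CD libraries. Fabp3, the FABP of heart and muscle, had 14 counts in HFD, of which 9 were in replicate 3, and none in CD. Fabp4, the FABP of adipocytes, had 5 counts in HFD and 1 in CD. Slc27a1, a fatty-acid transport protein of muscle and fat, had 4 counts in HFD and none in CD, and Slc27a4, the form of skin and intestine, had 2 and none. HFD replicate 3, the library with the most genes detected, held 15 of the 25 HFD counts. A count of 0 allows up to 3 reads, which is 0.299 to 0.709 CPM in an HFD library and 0.271 to 0.374 CPM in a CD library, with 2 counts taken as 1 read in all-even libraries. This limit covers counting error only. Part of the exons of Fabp3 (9.84%) also lies under Zcchc17 on the other strand, and the library chemistry does not mark strand.

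Relatives from the same families were read beside them. Fabp5 had 1369 to 4444 counts per HFD library and 425 to 1608 per CD library, whereas none of the 9 other FABP genes read exceeded 37 counts in an HFD library or 5 in a CD library. Of the SLC27 genes, Slc27a2, a transport protein that also activates very-long-chain fatty acids, was the one that passed the filter, with 4 to 162 counts per HFD library and 24 to 156 per CD library. Slc27a2, named after its values were seen, averaged 9.91 ± 5.78 CPM in HFD and 8.78 ± 4.33 CPM in CD (SD, n = 6 each), a difference of 0.17 ± 0.61 on the log2 scale (edgeR, adjusted p = 0.891). Acsl5 and Acsl6, the other long-chain synthetases, did not pass the filter, with at most 38 counts in an HFD library and 36 in a CD library.

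Markers of other cells, among them cells that express Fabp4 or Cd36 strongly, were read in the same libraries. Of 8 adipocyte markers none passed the filter, Plin1, Lep and Cidec had no count in any library, and the list summed to 0.473 to 1.84 CPM in HFD and 0.125 to 4.35 CPM in CD. Among 10 endothelial markers Cdh5, Esam and Egfl7 had no count, and the list summed to 11.6 to 31 CPM in HFD and 16.8 to 165 CPM in CD, 74.9% of it from Pecam1. Of that list 3 genes passed the filter, and Kdr and Tek reached 11.2 and 9.22 CPM, in CD replicates 3 and 4. The difference of the endothelial sums did not pass once adjusted (exact permutation test on log2 sums, two-sided, p = 0.0498; adjusted over the 7 marker lists, 0.348), and its part in the Cd36 level was not tested. Among 9 macrophage and leukocyte markers C1qa, Tyrobp and Fcer1g had no count, and the list summed to 4.49 to 20.9 CPM in HFD and 4.09 to 11.1 CPM in CD. Of these, 2 passed the filter, and C1qb reached 18.4 CPM in HFD replicate 3. Cumulus and granulosa markers summed to 125 to 1822 CPM in HFD and 140 to 1357 CPM in CD, with 92.4% from Serpine2 and no count for Amh, Ptx3, Areg and Amhr2. Of the 22 in that list 4 passed the filter, and Cyp19a1 reached 52.3 CPM in CD replicate 5. Oviduct markers summed to 7.36 to 110 CPM in HFD and 14.1 to 216 CPM in CD, and erythrocyte markers stayed under 1 CPM, with no globin count.

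Of the 6 members tested none passed the threshold for diet (edgeR, adjusted p under 0.05), as was the case for 0% of the 9935 genes tested. Fabp5 and Acot13 had an unadjusted p under 0.05, 2 of 6, against a background of 22.3% of all genes tested. Above 0 lay 3 members (Acot13, Fabp5 and Acsl3), and below 0 lay 3 (Cd36, Acsl4 and Acsl1). The median log2 fold change of the 6 was 0.12, beside 0.04 over all genes tested. DESeq2, run as an alternative, called Fabp5 and Acot13 higher in HFD, where it called 4.61% of its 10174 genes higher and 6.78% in either direction. The exact permutation test over libraries gave an unadjusted p under 0.05 for Fabp5 and Acot13, as for 19.3% of genes tested, and called no gene after adjustment. The smallest p that this test allows is 0.00216, so a gene could pass the adjustment only together with many others.

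**Figure D1:**
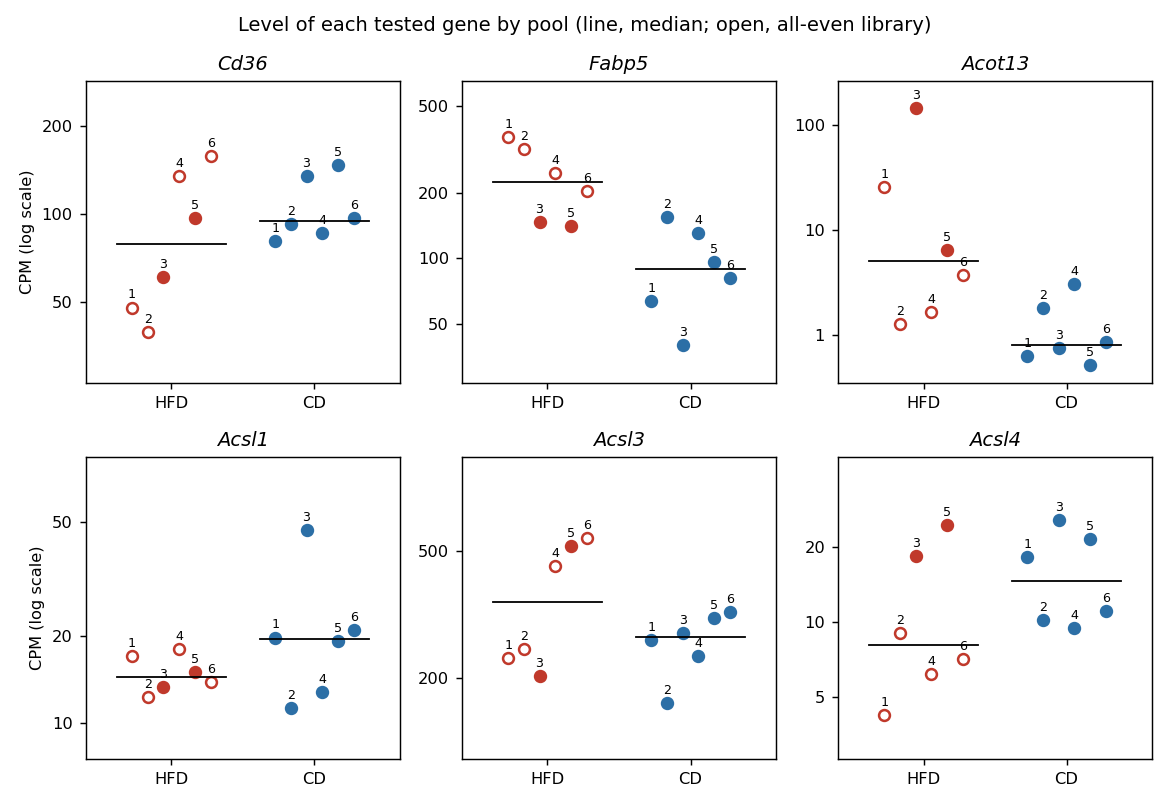
CPM (log scale) of the 6 tested genes in each pool, HFD left of CD, with replicate numbers, medians as lines and open circles for libraries whose counts were all even. Fabp5 lay at 140 to 360 CPM in HFD and 40.2 to 155 CPM in CD, and Acot13 reached 147 CPM in HFD replicate 3 alone.

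Uptake at the membrane was represented by Cd36, a scavenger receptor that binds long-chain fatty acids and oxidised lipoproteins (chromosome 5, 17781690 to 17888801, mm10). It stood at 39.4, 78.7 and 158 CPM (lowest, median and highest) in HFD and at 80.5, 94.4 and 147 CPM in CD. HFD replicates 1, 2 and 3 lay below every CD library and HFD replicate 6 above all of them, so the HFD pools enclosed the CD range on both sides. The mean was 89.4 ± 48.6 CPM in HFD and 106 ± 27.9 CPM in CD (SD, n = 6 each). The log2 fold change was −0.25 ± 0.35 (SE; edgeR, adjusted p = 0.711). The summed level of the cumulus and granulosa list, 92.4% of it Serpine2, was 125, 154 and 332 CPM in HFD replicates 1, 2 and 3 and 853 to 1822 CPM in HFD replicates 4 to 6. Other genes of that list peaked in different libraries. Inha, Inhbb, Hsd17b1 and Hsd3b1 had their highest levels of all libraries (8.92, 2.43, 2.11 and 3.57 CPM) in HFD replicate 1. The more abundant Nr5a2, Cyp19a1 and Cyp11a1 peaked in HFD replicate 6, CD replicate 5 and CD replicate 1 (19.6, 52.3 and 49.4 CPM). In CD, replicates 2 and 4 had sums of 157 and 140 CPM with Cd36 at 92 and 85.7 CPM, and replicate 1, the lowest in Cd36 at 80.5 CPM, had a sum of 744 CPM. The summed oocyte markers were also lower in HFD replicates 1, 2 and 3 (27886, 14778 and 30953 CPM) than in HFD replicates 4 to 6 (38437 to 55651 CPM). Within CD they were lowest in replicates 2 and 4, at 12471 and 14092 CPM. Serpine2 and H1foo were both highest in HFD replicate 4. The sum of the cumulus and granulosa list thus need not measure those cells, and their part in the Cd36 level was not tested.

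Among the binding proteins Fabp5, the epidermal form that also delivers fatty acids to the nuclear receptor PPAR delta, was the one above the filter (chromosome 3, 10012548 to 10016607). It stood at 140, 225 and 360 CPM (lowest, median and highest) in HFD and at 40.2, 89 and 155 CPM in CD. All 6 HFD libraries lay above the CD mean, 4 lay above every CD library, and the overlap came from HFD replicates 3 and 5 and CD replicate 2. Among the genes tested, 7.19% shared that position of all 6 HFD libraries. The mean was 235 ± 89.7 CPM in HFD and 94.3 ± 42.2 CPM in CD (SD, n = 6 each), and the log2 fold change of 1.32 ± 0.35 did not pass (edgeR, adjusted p = 0.0913). On log2 CPM the difference was 1.36 (exact permutation test, two-sided, p = 0.00649; adjusted over all genes tested, 0.115). DESeq2 gave 1.31 (adjusted p = 0.0198).

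The higher Fabp5 values in HFD were those of the 4 all-even libraries. These held 204 to 360 CPM, the 2 HFD libraries with odd counts held 146 and 140 CPM, and the CD libraries, all with odd counts, held 40.2 to 155 CPM. Fitted on the 8 libraries with odd counts, the log2 fold change of Fabp5 was 0.54 (edgeR, adjusted p = 0.641). All all-even libraries are HFD, so diet and that property cannot be told apart among them.

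Transcript length moved with the fold changes across all genes, and Fabp5 is a short messenger. Its coding transcript has 987 nt, while the longest annotated one, of 3238 nt, keeps an intron. In 5 classes of the genes tested by their longest transcript, the median log2 fold change was 0.76, 0.10, −0.12, −0.19 and −0.24 from the shortest to the longest. By protein-coding length Fabp5 fell in the shortest class, where the median was 0.83 and 72.1% of genes had a smaller fold change than Fabp5. With each library's length trend removed on protein-coding lengths, an alternative added after the data were seen, Fabp5 had 0.55 ± 0.34 (SE; edgeR, adjusted p = 0.45). With the longest transcripts as lengths it had 1.43 (adjusted p = 0.159). The slope of log2 CPM on log2 length ran from −0.483 to −0.0223 in HFD libraries and from −0.108 to 0.48 in CD libraries. CD replicate 3, at the highest slope, had the lowest Fabp5 of all libraries, 40.2 CPM, whereas HFD replicates 3 and 5, at the lowest and the highest slope of that diet, had 146 and 140 CPM.

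**Figure D2:**
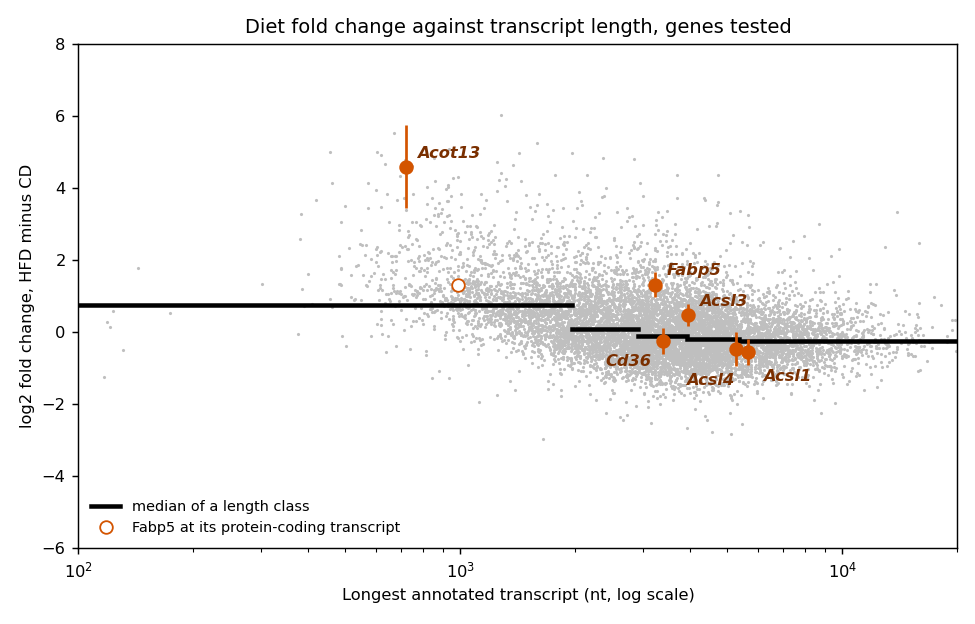
Log2 fold change (HFD minus CD) against the longest annotated transcript (nt, log scale) for the genes tested that have an annotated length (grey), with class medians as black bars and the 6 members with SE in orange. The open circle puts Fabp5 at its protein-coding length of 987 nt, in the class whose median is highest.

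Acot13 encodes a small thioesterase that releases fatty acids from coenzyme A (chromosome 13, 24817948 to 24831540). It stood at 1.29, 5.15 and 147 CPM (lowest, median and highest) in HFD and at 0.524, 0.806 and 3.11 CPM in CD. HFD replicate 3 held 1475 of the 1917 HFD counts and replicate 1 held 316, while the 6 CD libraries held 73 together. Above every CD library lay 4 HFD libraries, and HFD replicates 2 and 4, at 1.29 and 1.65 CPM, lay within the CD range. The mean was 31 ± 57.6 CPM in HFD and 1.28 ± 1.01 CPM in CD (SD, n = 6 each). The log2 fold change was 4.59 ± 1.15 (SE; edgeR, adjusted p = 0.0913), and it was 2.60 without HFD replicate 3 (adjusted p = 0.143). DESeq2 gave 4.58 (adjusted p = 0.000823), and the 8 libraries with odd counts, which include HFD replicate 3, gave 5.80 (edgeR, adjusted p = 0.0106), where 4.02% of genes were called higher. Acot13 has the shortest messenger of the 6, at 721 nt, and its log2 fold change with the length trend removed was 2.67 (adjusted p = 0.186).

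Of the 3 synthetases, Acsl3 was by far the most abundant. Acsl3 encodes the form of the endoplasmic reticulum and lipid droplet surface (chromosome 1, 78657825 to 78707743). It stood at 203, 348 and 549 CPM (lowest, median and highest) in HFD and at 168, 271 and 322 CPM in CD. HFD replicates 4, 5 and 6 lay above every CD library, and HFD replicates 1, 2 and 3 lay within the CD range. The mean was 367 ± 157 CPM in HFD and 263 ± 56.3 CPM in CD (SD, n = 6 each). Its log2 fold change was 0.48 ± 0.30 (SE; edgeR, adjusted p = 0.359). Utp14b, on the same strand, shares 5.6% of the Acsl3 exon bases and had 6 to 50 counts per library.

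Acsl1, the main synthetase of liver, fat and muscle (chromosome 8, 46471037 to 46536051), stood at 12.3, 14.5 and 18 CPM in HFD and at 11.2, 19.5 and 47 CPM in CD. The HFD pools were close together and lay inside the CD range, with 4 CD libraries above all of them. The mean was 14.9 ± 2.20 CPM in HFD and 21.9 ± 12.9 CPM in CD (SD, n = 6 each). The log2 fold change of −0.55 ± 0.36 did not pass (edgeR, adjusted p = 0.383), and it was −0.20 without CD replicate 3, which held the 47 CPM (adjusted p = 0.794).

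Acsl4, which prefers arachidonic acid and related polyunsaturated fatty acids (chromosome X, 142317993 to 142390535), stood at 4.22, 8.04 and 24.5 CPM in HFD and at 9.47, 14.6 and 25.6 CPM in CD. The 4 all-even HFD libraries held 4.22 to 9.02 CPM and lay below every CD library, whereas the 2 HFD libraries with odd counts held 18.4 and 24.5 CPM, among the higher CD values. The mean was 11.6 ± 8.07 CPM in HFD and 16 ± 6.74 CPM in CD (SD, n = 6 each). The log2 fold change was −0.47 ± 0.46 (SE; edgeR, adjusted p = 0.587). It was 0.37 in the libraries with odd counts (adjusted p = 0.79), and −0.88 without HFD replicate 5 (adjusted p = 0.257).

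**Figure D3:**
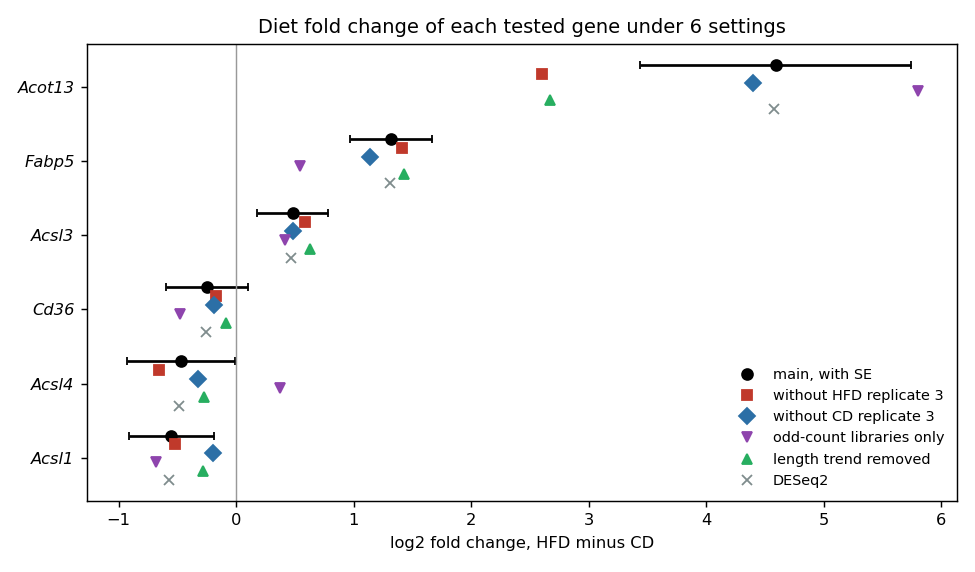
Log2 fold change (HFD minus CD) of each tested gene in the fit of all libraries (black, with SE) and under 5 alternatives. Acsl4 is the gene whose value lies on the other side of 0 in 1 of them, the libraries with odd counts, and Acot13 drops to 2.60 without HFD replicate 3.

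The ratio of Acsl4 to Acsl3 within a library depends on how libraries are scaled only through the prior count of 2 added before taking logs. Its log2 value was −5.11 ± 1.11 in HFD and −4.09 ± 0.53 in CD (SD, n = 6 each). The difference of −1.02 did not pass (exact permutation test, two-sided, p = 0.0779). It was −1.03 with a prior count of 0.5 and −0.98 with the length trend removed. All-even HFD libraries ranged from −6.24 to −4.74, HFD libraries with odd counts from −4.40 to −3.45, and CD libraries from −4.83 to −3.43. Without HFD replicate 3 the difference was −1.35 (exact permutation test, p = 0.0152), and among the libraries with odd counts it was 0.17 (exact permutation test, p = 0.714). The other pairs of related genes chosen for this ratio, Fabp5 with Fabp3 and Slc27a4 with Slc27a1, each had a member under the filter, so no ratio was computed.

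Levels of different genes were compared per kilobase of transcript within each library. With the longest annotated transcripts the order over all 12 libraries was Acsl3, Fabp5, Cd36, Acot13, Acsl1 and Acsl4. HFD libraries alone gave the same order, with no step past the threshold (exact sign-flip test, adjusted p = 0.156 to 0.438), whereas in CD libraries alone 2 of the 5 steps turned, with Fabp5 over Cd36 at −0.20 and Acot13 over Acsl1 at −0.98 on the log2 scale (exact sign-flip test, adjusted p = 0.656 and 0.195). Acsl3 averaged 92.9 ± 39.8 CPM per kb in HFD and 66.5 ± 14.3 CPM per kb in CD, and Fabp5 averaged 72.7 ± 27.7 CPM per kb in HFD and 29.1 ± 13 CPM per kb in CD. Cd36 averaged 26.3 ± 14.3 CPM per kb in HFD and 31.3 ± 8.20 CPM per kb in CD (SD, n = 6 each). Acsl1 and Acsl4 stayed between 0.798 and 8.28 CPM per kb in every library. Of the 5 neighbouring pairs, Cd36 and Acot13 differed over the 12 libraries, by 2.58 on the log2 scale, with Cd36 above in 10 of 12 (exact sign-flip test, two-sided, adjusted p = 0.0488). Acsl3 lay above Fabp5 in 9 of 12 libraries (adjusted p = 0.0623), and the other neighbours were not separated beyond their spread (exact sign-flip test, adjusted p = 0.145 to 0.495). With protein-coding transcripts as lengths, an alternative added after the data were seen, Fabp5 stood at 238 ± 90.8 CPM per kb in HFD and 95.6 ± 42.8 CPM per kb in CD, above Acsl3 by 0.91 on the log2 scale (exact sign-flip test, adjusted p = 0.0165). The order of the top 2 genes thus changed with the length taken for Fabp5.

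**Figure D4:**
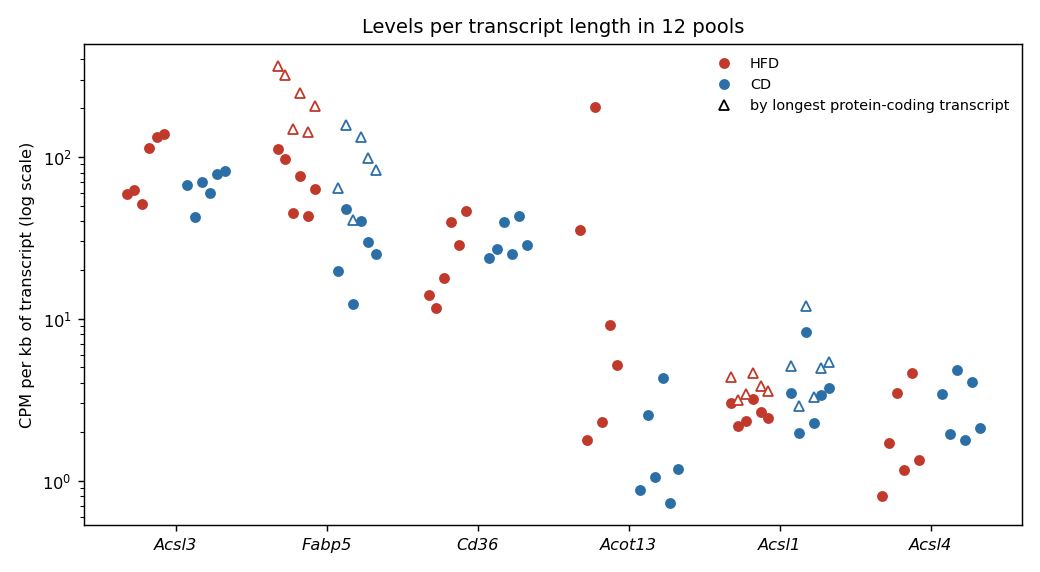
CPM per kb of transcript (log scale) for the 6 tested genes in HFD and CD pools, as circles by the longest transcript and as open triangles by the longest protein-coding transcript where that differs. Acsl3, Fabp5 and Cd36 lie above Acsl1 and Acsl4 in every pool, and Acot13 spans 0.727 to 204 CPM per kb.

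Shares of the summed level of Acsl1, Acsl3 and Acsl4 were taken per kb of the longest annotated transcript. Acsl3 made up 94.4% ± 2.60 in HFD and 90.8% ± 3.40 in CD (SD, n = 6 each), and never less than 84.3%. Acsl1 has 5676 nt by that length and 3897 nt by its protein-coding transcript, and shares by protein-coding lengths were not computed. Against all genes tested, per kb of the longest transcript, Acsl3 stood above 91.8%, Fabp5 above 87.8% and Cd36 above 81.1%, while Acsl1 stood above 41.6% and Acsl4 above 37.3%.

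Fabp5 and Acsl4 tended to run opposite to each other over the pools. Over the 12 libraries Pearson's r of log2 CPM was −0.77 (permutation test, p = 0.00339; adjusted over the 15 pairs of tested members, 0.0508) and Spearman's rho was −0.79 (permutation test, p = 0.00314; adjusted, 0.0471). Within diets r was −0.87 in HFD and −0.79 in CD. Without HFD replicate 1 and CD replicate 3, the libraries farthest from the median of Fabp5, it was −0.60. Fabp5 and Acsl1 had r = −0.69 over all libraries (permutation test, p = 0.00926; adjusted, 0.0694), with 0.23 within HFD and −0.96 within CD, and Spearman's rho was −0.62 (permutation test, p = 0.0382; adjusted, 0.186). Without the same 2 libraries r was −0.61. Cd36 and Acsl3 had r = 0.57 (permutation test, p = 0.054; adjusted, 0.27) and rho = 0.71 (permutation test, p = 0.0129; adjusted, 0.097), with 0.88 within HFD and 0.45 within CD. Without HFD replicates 1 and 2 it was 0.61. The remaining pairs had adjusted p-values of 0.186 or more. Fabp5 and Acsl4 differ in length, at 987 and 5280 nt of protein-coding transcript, and the length slopes given above differ between libraries too. Within HFD the all-even libraries held Fabp5 at 204 to 360 CPM with Acsl4 at 4.22 to 9.02 CPM. The HFD libraries with odd counts held Fabp5 at 140 to 146 CPM with Acsl4 at 18.4 to 24.5 CPM. The part of length, of diet and of the all-even property in this relation was not tested.

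**Figure D5:**
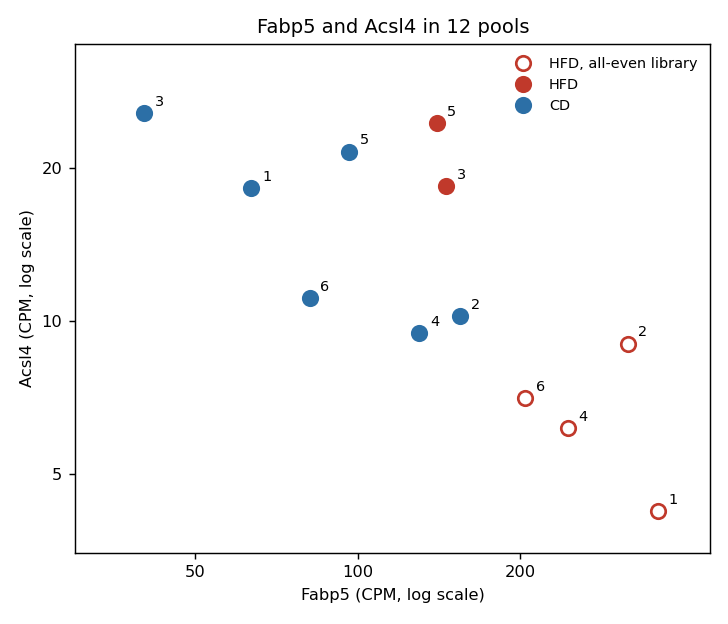
Acsl4 against Fabp5 (CPM, both axes on log scales) in the 12 pools, HFD in red and CD in blue, with replicate numbers and open circles for all-even libraries. The 4 all-even HFD libraries lie at the lower right, with Acsl4 at 4.22 to 9.02 CPM and Fabp5 at 204 to 360 CPM.

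For each tested member the genes with the most similar profile over the 12 libraries were listed by Pearson's r of log2 CPM, as a description of pools that share library and depth effects. Closest to Fabp5 were Brk1 (r = 0.961), Ifitm3 (0.961) and Erh (0.946). Closest to Cd36 were Lrrtm2 (0.931), Zdhhc13 (0.931) and Dmr (0.923), and closest to Acsl3 were Lamtor3 (0.931), Nkiras1 (0.927) and 9430038I01Rik (0.925). Closest to Acsl1 were Trim36 (0.935), Ern1 (0.933) and Slc25a22 (0.922), and closest to Acsl4 were Ssr1 (0.918), AI506816 (0.91) and Sox6 (0.893). Closest to Acot13 were Map3k6 (0.964), Miox (0.959) and Jtb (0.957). None of the 6 members was among the 3 closest genes of another.

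Other genes of fatty-acid uptake, binding, activation, release and sensing were read from 5 lists of 75 genes. Of these, 31 were tested, 22 lay above 0 and 9 below, and none passed the threshold (edgeR), as was the case for 0% of all genes tested. An unadjusted p under 0.05 was found for 6 of the 31, against 22.3% of all genes tested, and DESeq2 called 4, against 6.78% of its 10174 genes. The median log2 fold change of the 31 was 0.27, beside 0.04 over all genes tested, whose share above 0 is not given here. Without HFD replicate 3 the median of the uptake genes went from 0.65 to 0.14 and that of the thioesterases from 0.28 to 0.06. Those of the binding genes, synthetases and receptors went from 0.38 to 0.47, from −0.27 to −0.17 and from 0.15 to 0.20.

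Among 7 tested uptake genes, 5 lay above 0 and 2 below. Lpl, the lipase that frees fatty acids from lipoproteins, averaged 134 ± 45.5 CPM in HFD and 85.2 ± 22.2 CPM in CD. Its log2 fold change of 0.65 ± 0.29 (edgeR, adjusted p = 0.204) was 0.19 where counts were odd. Scarb1, a lipoprotein receptor, averaged 29.1 ± 7.47 CPM in HFD and 54.1 ± 13.7 CPM in CD, and every HFD library lay below every CD library, as for 2.45% of genes tested in either direction. Its log2 fold change was −0.89 ± 0.28 (edgeR, adjusted p = 0.105) and −1.31 where counts were odd. Lpl and Scarb1 were named for the smallest p in each direction, and the separate pools of Scarb1 go with that choice.

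Among 7 tested binding genes, 5 lay above 0 and 2 below. Acbd7, an acyl-CoA binding protein, averaged 37.9 ± 18 CPM in HFD and 10.6 ± 3.77 CPM in CD. Its pools did not overlap between the diets, as for 2.45% of genes tested in either direction. The log2 fold change of Acbd7 was 1.83 ± 0.39 (edgeR, adjusted p = 0.0913), 1.56 where counts were odd, and 0.45 once the length trend was removed. Acbd5, an acyl-CoA binding protein of the peroxisome membrane, averaged 55.4 ± 15.5 CPM in HFD and 101 ± 28.5 CPM in CD, also without overlap (log2 fold change −0.87 ± 0.28; edgeR, adjusted p = 0.106). Acbd7 and Acbd5 were named for the smallest p in each direction, and separate pools go with that choice.

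Of 16 further acyl-CoA synthetases 2 were tested, Acsm2 at 0.27 and Acsm3 at −0.81 (edgeR, adjusted p = 0.767 and 0.263). Of 18 further thioesterases 10 were tested, and 8 of these lay above 0. Acot11 had the smallest p among them, with a log2 fold change of 2.92, or −0.65 without HFD replicate 3 (edgeR, adjusted p = 0.226 with it), and Ppt2, a lysosomal thioesterase, had −0.89 (adjusted p = 0.297). Of 5 tested receptors and coactivators 3 lay above 0. Pparg had 0.57 (edgeR, adjusted p = 0.648), and Ppara, the receptor that drives fatty-acid oxidation genes, averaged 7.09 ± 3.57 CPM in HFD and 12.5 ± 2.48 CPM in CD. For Ppara the log2 fold change was −0.82 (edgeR, adjusted p = 0.227).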

How the data were processed

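The deposited table held raw read counts per gene symbol for 12 libraries. Per the submitters' processing notes, STAR, HTSeq 1.0.0, DESeq2 1.0.19 and build mm10 were used; annotation, strand setting and read length are not stated there. Per the labels' protocols, SMART-Seq v4 cDNA was tagmented with Nextera XT. The counter's own tallies, 66.5% to 72.9% of reads in HFD and 62.3% to 66.6% in CD, were left out of library sizes and tests. Libraries of 1 diet differed by 25.1 chi-square units per degree of freedom or more, so none was merged.

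From the counts, edgeR 4.0.16 (R 4.3.3) with TMM, its default low-count filter and the robust quasi-likelihood F-test compared HFD with CD. SEs were the fold change over the square root of its F statistic. Log2 CPM used a prior count of 2. Symbols, lengths, coordinates and sequences came from GENCODE M21, to which 22750 symbols matched. Alternatives used DESeq2 1.42.0 and limma 3.58.1. Named genes were the 10 members, the smallest p in each direction per list, and the 3 most similar genes per member. The members and lists were chosen with earlier results of these data known.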

Additional observations from a re-analysis of the deposited data

Results flagged for a closer look

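In 2 of the 12 sets of 6 libraries checked (6 genes in each diet), 1 library lay far from the others of its diet by Dixon's criterion on CPM. For normally distributed values chance meets that criterion in about 1 set in 20. CPM values need not be so distributed, and the criterion was not applied on the log2 scale. Acot13 reached 147 CPM in HFD replicate 3, against 1.29 to 25.6 CPM in the other HFD libraries. Acsl1 reached 47 CPM in CD replicate 3, against 11.2 to 21.1 CPM in the remaining ones of CD. HFD replicate 3 had the most genes detected, 14755, and the lowest slope of expression on transcript length, −0.483. CD replicate 3 had the highest slope, 0.48. The part of these properties in the flagged values was not tested.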

How the results depend on the processing

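No member and no gene passed in the edgeR fits with other scaling, other filters, halved counts, a length correction, or 1 library left out (0 to 0 calls). DESeq2 called 690 genes, 2 of them members (Fabp5 at 1.31, Acot13 at 4.58), limma-voom 35 genes and no member, and the libraries with odd counts 456 genes and 1 member (Acot13 at 5.80). In those libraries Acsl4 turned to 0.37 and the Acsl4 to Acsl3 ratio to 0.17. With each library left out, the ratio ran from −1.35 to −0.80, Fabp5 from 1.14 to 1.52, Acot13 from 2.60 to 5.04, Acsl3 from 0.32 to 0.59, Cd36 from −0.49 to −0.10, Acsl1 from −0.69 to −0.20 and Acsl4 from −0.88 to −0.30.

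With median transcript lengths, the log2 difference per kb was 2.60 for Acsl3 over Fabp5, 0.96 for Fabp5 over Cd36, −1.79 for Acot13 over Acsl1 and 3.38 for Acsl1 over Acsl4. With protein-coding lengths, those of Acsl3 over Fabp5, Fabp5 over Cd36 and Acsl1 over Acsl4 were −0.91, 2.40 and 0.94. Cd36 over Acot13 was 1.05 in HFD libraries and 4.12 in CD libraries, where 6 libraries allow few calls. In CD libraries Fabp5 over Cd36 was −0.20 and Acot13 over Acsl1 −0.98. The cause was not tested.

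Deviations of same-numbered libraries from their diet means had correlations from −0.452 to 0.55, and 2 of 6 HFD libraries correlated best with their own number. Such correlations cannot decide whether same-numbered pools were handled together. With the replicate block, edgeR called 0 genes, and Fabp5 stood at 1.36 and Acot13 at 2.78. The ratio's difference of −1.02 had p = 0.0312 (exact sign-flip test over same-numbered libraries), the smallest p that 6 pairs allow. At 5 to 25 counts per library, as for Acot13 in CD, depth limits the precision.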
